A study of Mus musculus with 16 samples.

Results

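The B7 and CD28 checkpoint family was followed in islet RNA through 10 genes, namely Vtcn1, Cd274, Pdcd1lg2, Cd276, Vsir, Cd80, Cd86, Icosl, Pdcd1 and Ctla4. They were chosen by gene symbol, and all 10 were listed in both FPKM tables, of 17361 genes for the chow-fed mice and 17318 genes for the HFD-fed mice. The tables cover 16 libraries in 4 groups of 4 from mice on a C57BL/6J background. All 4 groups carry floxed B7-H4 alleles. Flox mice carry loxP sites around exon 2 of Vtcn1 and no Cre, and B7-H4 cKO mice carry the same alleles and a Cre transgene driven by a rat insulin II promoter fragment. Both groups were on a normal chow diet, and the ages of the mice sequenced are not given in the sources used here. The other two groups were Flox mice fed an HFD from 6 weeks of age for 8 weeks, then infused through the pancreatic duct with AAV2/8 carrying B7-H4 under the rat insulin 2 promoter (AAV2/8-Ins2-B7-H4, here OE) or with a control virus (AAV2/8-Ctrl, here Ctrl). Their islets were taken 5 weeks after infusion. No Cre-only group was sequenced, so the Cre transgene and the loss of B7-H4 cannot be told apart in the cKO libraries.

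The proteins of the B7 family are cell-surface ligands that antigen-presenting cells and many tissue cells show to T lymphocytes. CD80, CD86 and ICOSL give costimulation through CD28 and ICOS, CTLA-4 competes with CD28 for CD80 and CD86, and PD-L1 (Cd274) and PD-L2 (Pdcd1lg2) engage the inhibitory receptor PD-1 (Pdcd1). B7-H4 (Vtcn1), B7-H3 (Cd276) and VISTA (Vsir) are members whose receptors are less settled. In islets, PD-L1 can be induced on β cells by interferons, whereas CTLA-4 and PD-1 are mainly carried by activated T cells.

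In the mm10 assembly (GRCm38, GENCODE M21), Vtcn1 lies at chr3:100825459-100896922 on the plus strand. Cd274 (chr19:29367455-29388095) and Pdcd1lg2 (chr19:29410919-29471161) are neighbours on the plus strand of chromosome 19, with 22823 bases between them. Cd80 (chr16:38455561-38496335) and Cd86 (chr16:36603869-36666081) share chromosome 16, Vsir (chr10:60346851-60372684) and Icosl (chr10:78069302-78083913) share chromosome 10, and Ctla4 (chr1:60887000-60915832) and Pdcd1 (chr1:94038305-94052553) share chromosome 1. Cd276 lies at chr9:58524298-58555437 on the minus strand.

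The floxed exon of Vtcn1 is shown because the knockout is defined by it. Exon 2 (chr3:100874761-100874825, plus strand) is entirely coding, with 65 bases, which is not a whole number of codons and is 2.48% of the 2622-base transcript Vtcn1-201 of 6 exons. The other two sequences are the forward primers of the study's qPCR assays for mouse B7-H4, which a search placed in the same transcript. Capitals mark the 4 bases that the exon and the primer mB7H4-F2 share.
Vtcn1 exon 2: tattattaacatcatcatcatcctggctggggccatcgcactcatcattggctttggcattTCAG
mB7H4-F2: TCAGgcaagcacttcatcac
mB7H4-F1: ggcaatgcttccctgagact
Primer mB7H4-F2 starts at base 194 of the transcript and crosses from exon 2 into exon 3, so its 5′ end falls in the floxed exon. Primer mB7H4-F1 starts at base 431, in exon 3, and its partner mB7H4-R1 lies in exon 4, so that pair of 231 bases is outside the floxed exon. A gene-level FPKM counts all exons together and cannot show the loss of exon 2 by itself.

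The libraries had relative depths of 0.942 to 1.07 of their table's median in the chow-fed mice and of 0.841 to 1.08 in the HFD-fed mice. Read totals are not given. For 6 low members (Vtcn1, Pdcd1lg2, Cd80, Cd86, Pdcd1 and Ctla4) the values of all libraries up to 250 steps were whole multiples of 1 step, with a largest distance of 0.0263 of a step, and a step was taken as 1 fragment. The gene lengths the authors divided by are not given, and with the exon lengths of GENCODE M21 a step came to between 0.574 fragments (Pdcd1lg2) and 1.64 fragments (Vtcn1), so that fragment numbers hold up to 1 common factor per gene. The labelled tissue carried its markers, since 12 β-cell markers, the insulin genes Ins1 and Ins2 among them, made up 4.38% to 55.1% of all FPKM. Acinar markers, from the digestive-enzyme cells around islets, made up 7.64% to 35.7% of all FPKM in Flox, 36.7% to 45.9% in cKO, 10.96% to 14.4% in OE and 2.12% to 73.8% in Ctrl, where Ctrl3 and Ctrl2 (56.6%) were the highest of all. Ctrl5 stood apart by macrophage and T-lymphocyte markers, as described with the members. In bulk islet RNA, fewer cells of a type and less RNA per cell cannot be told apart. No pair of libraries shared a nonzero value identical for any gene, and nothing in the labels says whether libraries came from separate mice, so that p-values measure the spread between these libraries.

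Vtcn1, the gene manipulated in both models, was at 0.371 FPKM or less in every library outside OE. The Flox libraries (Flox16, Flox17, Flox20 and Flox21) held 0.0199, 0.0603, 0.0188 and 0.216 FPKM, or 1, 3, 1 and 11 fragments. The cKO libraries (cKO8, cKO9, cKO12 and cKO38) held 0.0207, 0.125, 0.0202 and 0.0642 FPKM, or 1, 6, 1 and 3 fragments. The 2 groups overlapped throughout, with 16 fragments in all Flox libraries and 11 in all cKO libraries, and a count of 0 would allow up to 0.0642 FPKM in these libraries. A difference in B7-H4 mRNA between cKO and Flox islets was therefore not detectable at this depth, and the knockout could not be checked from Vtcn1. The study itself reported lower B7-H4 mRNA by qPCR and less B7-H4 protein by Western blot in cKO islets. In the fit that kept every gene above 0 FPKM, the log2 fold change was -0.05 (limma, adjusted p = 0.789). That fit called 0 of 17361 genes, with 5539 at an unadjusted p under 0.05, so not passing it says nothing particular to a gene. Ctrl1, Ctrl2, Ctrl3 and Ctrl5 held 0.0636, 0.371, 0.349 and 0.284 FPKM, or 3, 20, 17 and 13 fragments. The last 3 of these lay above the 0.0656 FPKM that a count of 0 would allow at most in Ctrl. In the same order, acinar markers made up 5.45%, 56.6%, 73.8% and 2.12% of all FPKM, and β-cell markers 55.1%, 19.1%, 4.38% and 39.4%. Which cells carried Vtcn1 in Ctrl was not tested.

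OE1, OE2, OE3 and OE4 held 40.01, 128, 74.1 and 60.5 FPKM of Vtcn1. All 4 OE libraries were above all 4 Ctrl libraries, with the lowest OE library 108-fold above the highest Ctrl library. The means were 75.6 ± 37.5 FPKM in OE and 0.267 ± 0.141 FPKM in Ctrl (SD, n = 4), a 283-fold ratio. On the log2(FPKM + 0.5) scale, which understates the change of a low gene, Vtcn1 was higher by 6.53 (SE 0.46, limma, adjusted p = 5.48e-08). It was 1 of the 4 genes past the test in this comparison, which is 0.033% of 12132 genes tested, and the same 0.033% also passed an absolute log2 fold change over 1. Among the 12132 genes, 5.61% had all OE libraries above all Ctrl libraries and 0.964% had them all below. The highest OE library held 3.19 times the Vtcn1 level of the lowest. In the OE table Vtcn1 stood above 94.2% of genes by its mean over the 8 libraries, whereas in the chow table it stood above 17.3%. The OE mice received B7-H4 by the vector, so this rise reads the manipulation itself. Gene-level FPKM does not separate transcripts of the vector from those of the mouse gene.

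**Figure D1:**
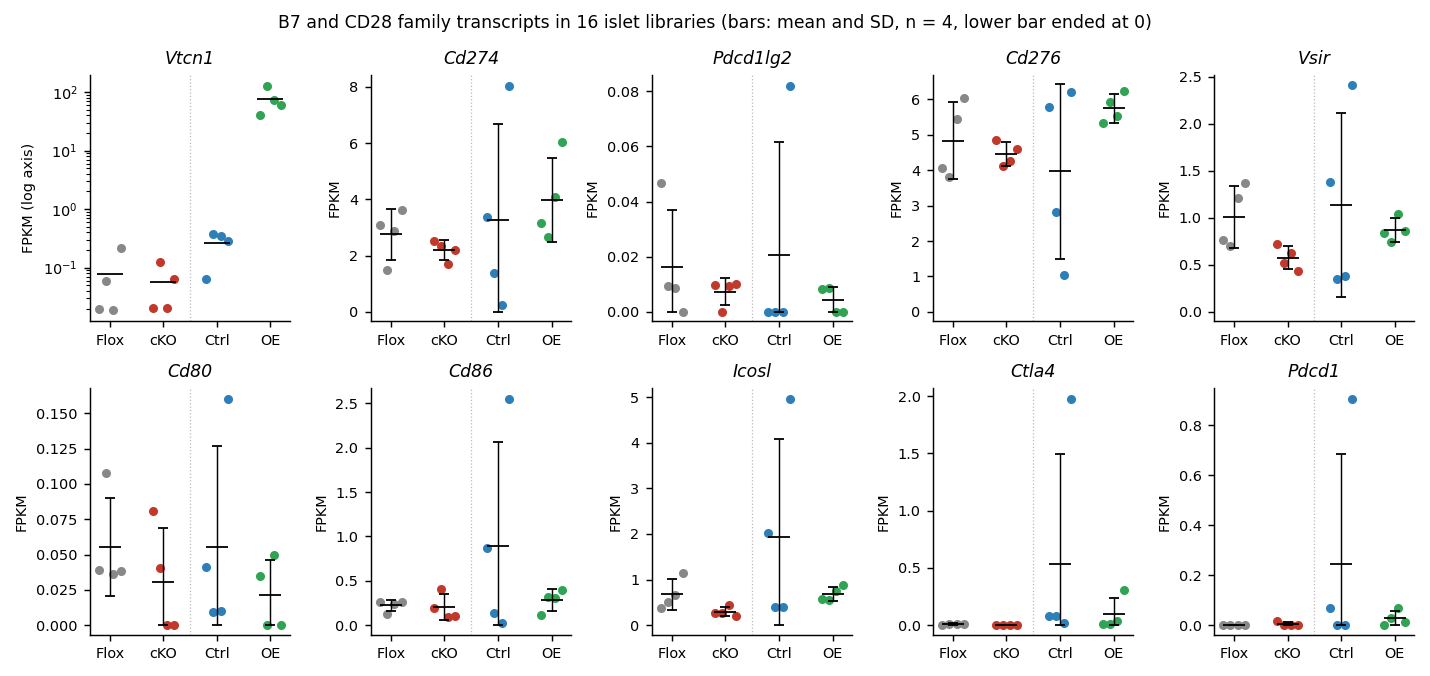
FPKM (y axis, linear and from 0, but a log axis for Vtcn1) of the 10 members in the Flox, cKO, Ctrl and OE groups (x axis), 1 point per library, with the mean and SD of 4 libraries (mean only for Vtcn1; lower SD bars end at 0). Vtcn1 reached 40.01 to 128 FPKM in OE and stayed at or below 0.371 FPKM elsewhere, and in the panels of Cd274, Pdcd1lg2, Vsir, Cd80, Cd86, Icosl, Ctla4 and Pdcd1 the top point is Ctrl5.

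Only Cd276, Cd274 and Vsir of the 10 members reached the minimum mean of 0.5 FPKM in the chow-fed mice. By mean over 8 libraries, per length, the order in that table was Cd276 (4.64 FPKM), Cd274 (2.48), Vsir (0.794), Icosl (0.487), Cd86 (0.213), Vtcn1 (0.0680), Cd80 (0.0428), Pdcd1lg2 (0.0117), Ctla4 (0.00549) and Pdcd1 (0.00214). Every chow library had more Cd276 than Cd274 and more Cd274 than Vsir. The order from Vtcn1 down rested on few fragments, and differences between neighbours there were not tested. In the HFD-fed mice Vtcn1 led with the OE libraries included, followed by Cd276 (4.86 FPKM), Cd274 (3.63), Icosl (1.31), Vsir (1.002), Cd86 (0.589), Ctla4 (0.316), Pdcd1 (0.136), Cd80 (0.0381) and Pdcd1lg2 (0.0124). Ctla4 and Pdcd1 owed their place there mostly to Ctrl5, which held 120 of the 132 Ctla4 fragments and 50 of the 54 Pdcd1 fragments of the Ctrl group. The tables were normalised separately, so that levels are set side by side and not compared between diets.

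None of the 3 members tested passed the test between cKO and Flox, where 1.02% of 11804 genes were higher and 12.8% lower at an adjusted p under 0.05, and 1.31% also had an absolute log2 fold change over 1. The cKO libraries lay wholly above the Flox libraries for 1.32% of genes and wholly below them for 15.4%, and for none of the 10 members. Over the whole table the median log2 fold change was -0.34, so that the deposited FPKM were lower in cKO for most genes.

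Cd274 encodes PD-L1, the main PD-1 ligand on tissue cells. Its FPKM were 3.09, 1.48, 2.89 and 3.61 in Flox16, Flox17, Flox20 and Flox21. They were 2.51, 2.35, 1.71 and 2.21 in cKO8, cKO9, cKO12 and cKO38. The cKO values lay inside the Flox range, because Flox17 was the lowest of the 8. The log2 fold change was -0.24 (SE 0.22, limma, adjusted p = 0.389), or 0.11 above the median of all genes. With the 3 libraries per group that the study's heatmaps show, without Flox17 and cKO8, it was -0.52 (limma, adjusted p = 0.0209), in a fit in which 63.5% of 11794 genes were called lower. Leaving out Flox17 alone gave -0.46 (limma, adjusted p = 0.0286) with 57.2% of genes called lower. After median-of-ratios scaling, in which each library is divided by the median ratio of its genes to their geometric mean, it was 0.09 (limma, adjusted p = 0.755). The scaled fit called 147 of 11782 genes lower and 133 higher.

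Cd276 encodes B7-H3, a member found on many non-immune cells. Flox16, Flox17, Flox20 and Flox21 held 4.05, 3.80, 5.45 and 6.03 FPKM, and cKO8, cKO9, cKO12 and cKO38 held 4.85, 4.10, 4.26 and 4.60. The groups overlapped, with means of 4.83 ± 1.08 and 4.45 ± 0.336 FPKM (SD, n = 4). The log2 fold change of -0.09 (SE 0.19, limma, adjusted p = 0.720) was 0.26 above the median of all genes. After scaling the Cd276 values were 3.69 to 4.39 in Flox and 4.75 to 5.66 in cKO and no longer overlapped, as held for 6.86% of genes in that direction. The scaled difference was 0.26 on the log2 scale (SE 0.09, limma, adjusted p = 0.107), which did not pass the test.

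Vsir encodes VISTA, an inhibitory member that is abundant on myeloid cells. Its values were 0.762, 0.697, 1.21 and 1.37 FPKM in Flox16, Flox17, Flox20 and Flox21, and 0.723, 0.521, 0.628 and 0.438 in cKO8, cKO9, cKO12 and cKO38. Only cKO8 reached into the Flox range, above Flox17. The log2 fold change of -0.47 (SE 0.20, limma, adjusted p = 0.0872) did not pass the test and was 0.13 below the median of all genes. It was -0.64 (limma, adjusted p = 0.0211) with 3 libraries per group, -0.57 (limma, adjusted p = 0.0228) without Flox17 alone, and -0.23 (limma, adjusted p = 0.255) after scaling. With the acinar marker share as a covariate it was -0.06 (limma, adjusted p = 0.973), in a fit that called 0 of 11804 genes. Acinar shares did not overlap between the groups, at 36.7% or more in cKO and 35.7% or less in Flox, and its part in the Vsir values cannot be told apart from the genotype.

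**Figure D2:**
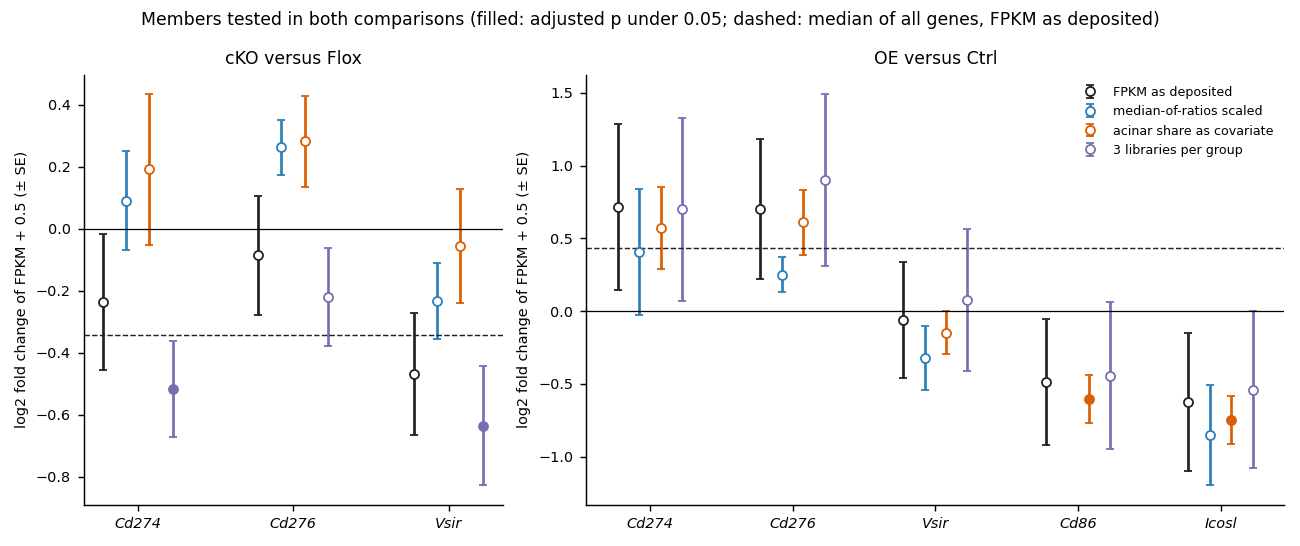
Log2 fold change of FPKM + 0.5 (y axis, with SE) of the members tested in each comparison apart from Vtcn1 (x axis), from the deposited FPKM, after median-of-ratios scaling, with the acinar share as covariate, and with 3 libraries per group; filled points have an adjusted p under 0.05 and the dashed line is the median of all genes. In cKO versus Flox the filled points are Cd274 (-0.52) and Vsir (-0.64) with 3 libraries per group, and in OE versus Ctrl they are Cd86 (-0.60) and Icosl (-0.75) with the covariate.

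In the HFD-fed mice Vtcn1 was the single member of 6 tested that passed, against 0.033% of genes called higher and 0% called lower (0 of 12132 genes by limma, with 778 genes in either direction at an unadjusted p under 0.05). Vtcn1 reached the minimum mean only through the OE libraries, which received B7-H4, so its pass was not read as a result about the family. Cd274 held 3.36, 1.40, 0.265 and 8.04 FPKM in Ctrl1, Ctrl2, Ctrl3 and Ctrl5, and 3.16, 2.66, 4.09 and 6.06 in OE1, OE2, OE3 and OE4. The Ctrl libraries spread over a 30.3-fold range that enclosed all OE libraries. OE exceeded Ctrl by 0.72 on the log2 scale (SE 0.57, limma, adjusted p = 0.598). It was 1.28 without Ctrl5 (limma, adjusted p = 0.235) and 0.12 without Ctrl3 (limma, adjusted p = 0.998), so 1 control library moved it in either direction.

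Cd276 held 5.79, 2.82, 1.05 and 6.21 FPKM in Ctrl1, Ctrl2, Ctrl3 and Ctrl5, against 5.32, 5.91, 5.52 and 6.24 in OE1, OE2, OE3 and OE4. The 2 low libraries were those with the highest acinar shares, 56.6% in Ctrl2 and 73.8% in Ctrl3. For Cd276 the log2 fold change was 0.70 (SE 0.48, limma, adjusted p = 0.591). After scaling, Cd276 was 3.10 to 4.33 in Ctrl and 4.44 to 5.15 in OE, without overlap, as for 11.9% of genes in that direction. The scaled difference was 0.25 (SE 0.12, limma, adjusted p = 0.258), in a fit that called 4 of 12044 genes. Scaled Cd276 varied less than the deposited values, with a coefficient of variation in Ctrl of 14.3% against 62.0%, whereas that of Cd274 stayed at 73.9% against 105%.

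**Figure D3:**
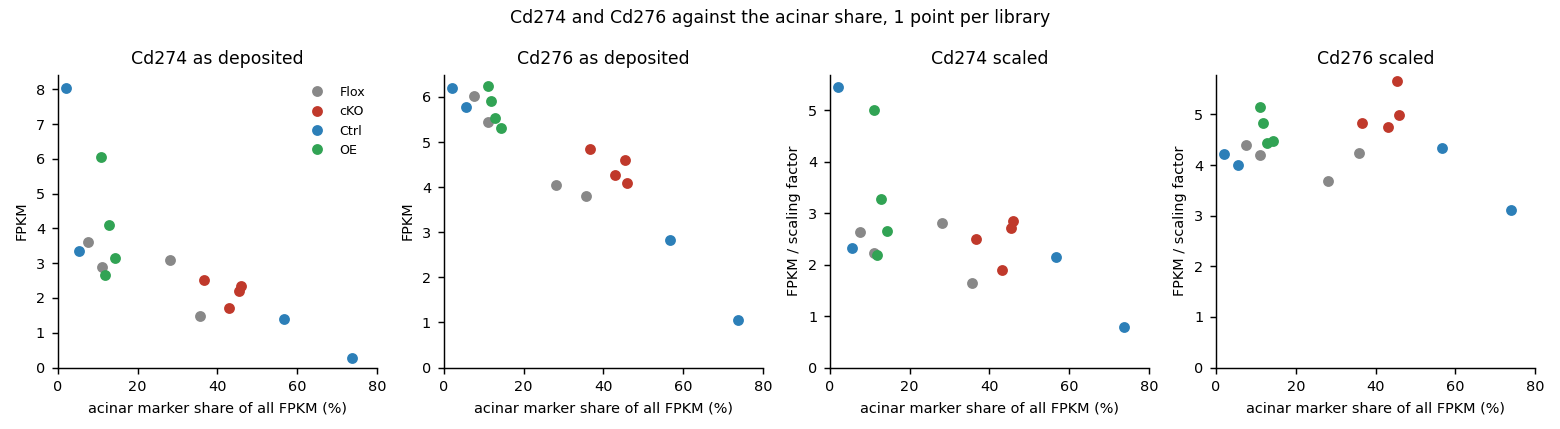
Cd274 and Cd276 (y axis, FPKM as deposited and FPKM divided by the scaling factor) against the share of acinar markers in all FPKM (x axis, percent), 1 point per library coloured by group. The deposited levels were lowest in Ctrl3, at a share of 73.8%, while scaled Cd276 stayed between 3.10 and 5.66 and scaled Cd274 between 0.784 and 5.46 in all 16 libraries.

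Vsir held 1.38, 0.349, 0.386 and 2.41 FPKM in Ctrl1, Ctrl2, Ctrl3 and Ctrl5, and 0.840, 0.746, 1.04 and 0.856 in OE1, OE2, OE3 and OE4. The OE values fell between the low pair and the high pair of control libraries. The log2 fold change was -0.06 (SE 0.40, limma, adjusted p = 0.932) and 0.28 without Ctrl5 (limma, adjusted p = 0.497). Pdcd1lg2, the second PD-1 ligand, was at 0 in Ctrl1, Ctrl2 and Ctrl3 and at 0.0820 FPKM, or 8 fragments, in Ctrl5. OE1 and OE2 held 1 fragment of it each and OE3 and OE4 none. The 8 chow libraries held 0 to 5 fragments, with the most in Flox16. A count of 0 allowed up to 0.0307 FPKM of Pdcd1lg2, so no difference could be read for this gene.

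Among the costimulatory ligands, Icosl, which engages ICOS, was the most abundant in both tables. It held 2.01, 0.392, 0.390 and 4.96 FPKM in Ctrl1, Ctrl2, Ctrl3 and Ctrl5, and 0.568, 0.548, 0.761 and 0.875 in OE1, OE2, OE3 and OE4. Ctrl5 and Ctrl1 were above every OE library and Ctrl2 and Ctrl3 below every one. For Icosl the log2 fold change was -0.62 (SE 0.47, limma, adjusted p = 0.592), and -0.09 without Ctrl5 (limma, adjusted p = 0.838). After scaling, Icosl was 1.39, 0.602, 1.16 and 3.37 in Ctrl1, Ctrl2, Ctrl3 and Ctrl5 and 0.449 to 0.723 in OE, so that Ctrl3 moved from below to above every OE library. The scaled difference was -0.85 (SE 0.35, limma, adjusted p = 0.195), and -0.50 without Ctrl5 (limma, adjusted p = 0.198). With the acinar share as covariate Icosl was lower in OE by 0.75 on the log2 scale (SE 0.16, limma, adjusted p = 0.0342). That fit called 13.4% of genes higher and 2.25% lower. In the chow-fed mice Icosl was 0.368, 0.509, 0.674 and 1.15 FPKM in Flox16, Flox17, Flox20 and Flox21, and 0.273, 0.274, 0.449 and 0.203 in cKO8, cKO9, cKO12 and cKO38. Its mean of 0.487 FPKM fell just under the minimum. In the fit of every gene above 0, where no gene passed, the log2 fold change was -0.52 (limma, unadjusted p = 0.0251, adjusted p = 0.117). Without Flox16 it rose above the minimum and was lower in cKO by 0.65 (limma, adjusted p = 0.0229), in a fit that called 21.3% of genes lower. It reached the minimum in 4 other fits and passed in none of them, at -0.57 with 3 libraries per group (limma, adjusted p = 0.0764), -0.51 without cKO8 (0.0995), -0.51 without cKO9 (0.175) and -0.46 without cKO38 (0.196). In that order, the fits called 7484 of 11794, 1525 of 11795, 17 of 11836 and 72 of 11851 genes lower.

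Cd86, which binds CD28 and CTLA-4, held 0.874, 0.136, 0.0232 and 2.55 FPKM in Ctrl1, Ctrl2, Ctrl3 and Ctrl5, or 73, 13, 2 and 206 fragments. OE1, OE2, OE3 and OE4 held 0.111, 0.319, 0.307 and 0.397 FPKM, or 11, 31, 32 and 39 fragments. As for Icosl, the 2 highest libraries were Ctrl5 and Ctrl1, and the log2 fold change was -0.49 (SE 0.43, limma, adjusted p = 0.609). With the acinar share as covariate it was -0.60 (SE 0.17, limma, adjusted p = 0.0417). In that fit 3 members passed, namely Vtcn1 higher and Cd86 and Icosl lower, and without Ctrl5 the mean of Cd86 did not reach the minimum of 0.5 FPKM. In the chow-fed mice Cd86 ran from 0.125 to 0.266 FPKM in Flox and from 0.0915 to 0.411 in cKO, with cKO9 the highest of the 8. The log2 fold change in the fit of every gene, where no gene passed, was -0.06 (limma, adjusted p = 0.785).

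Cd80, the other ligand of CD28 and CTLA-4, was lower than Cd86 in every one of the 16 libraries. It held 4, 11, 4 and 4 fragments in Flox16, Flox17, Flox20 and Flox21 and 8, 4, 0 and 0 in cKO8, cKO9, cKO12 and cKO38. Ctrl1, Ctrl2, Ctrl3 and Ctrl5 held 4, 1, 1 and 15 fragments, and OE1, OE2, OE3 and OE4 held 4, 0, 6 and 0. Each group therefore overlapped the one it was compared with, at 23 against 12 fragments in the chow-fed mice and 21 against 10 in the HFD-fed mice. Cd80 did not pass in the fits of every gene above 0 (limma, adjusted p = 0.472 and 0.674). Those fits called 0 of 17361 and 13 of 17318 genes.

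The 2 receptors of the list, CTLA-4 and PD-1, were almost absent from the chow-fed islets. Ctla4 had 1 fragment in each of Flox17, Flox20 and Flox21 and none in Flox16 or any cKO library, and Pdcd1 had 1 fragment, in cKO8. A count of 0 allowed up to 0.0494 FPKM of Ctla4 and up to 0.0543 FPKM of Pdcd1. In the HFD-fed mice Ctla4 was 0.0796, 0.0837, 0.0154 and 1.97 FPKM in Ctrl1, Ctrl2, Ctrl3 and Ctrl5, or 5, 6, 1 and 120 fragments. It was 0.0135, 0.0137, 0.0382 and 0.312 FPKM in OE1, OE2, OE3 and OE4, or 1, 1, 3 and 23 fragments. Ctrl5 was highest and OE4 second. Pdcd1 was at 4, 0, 0 and 50 fragments in Ctrl1, Ctrl2, Ctrl3 and Ctrl5 and at 0, 2, 5 and 1 in OE1, OE2, OE3 and OE4. In the fit of every gene above 0, which called 13 of 17318 genes higher and 0 lower, neither receptor passed (limma, log2 fold change -0.48 and adjusted p = 0.664 for Ctla4, -0.34 and 0.651 for Pdcd1).

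The libraries rich in these members were also rich in immune-cell markers. The 11 of 14 T-lymphocyte markers listed in the tables summed to 26.3 FPKM in Ctrl5, 4.67 in OE4, 2.18 in Ctrl1 and 2.00 in Ctrl2, and to between 0.446 and 1.58 in the other 12 libraries. Ctrl5 and OE4 had none of the 11 at 0, and the 8 chow libraries had 3 to 6 of them at 0. Cd3g, a subunit of the T-cell receptor complex, was at 6.84 FPKM in Ctrl5 and 1.49 in OE4, and Cd3e was at 2.87 and 0.295 FPKM. The order of Ctla4 in the HFD libraries began, like that of the T-lymphocyte sum, with Ctrl5 and OE4, while Pdcd1 in OE4 was a single fragment. The 20 macrophage and dendritic cell markers summed to 3193 FPKM in Ctrl5 and 813 in Ctrl1, to 434 to 595 in OE, and to 255 and 121 in Ctrl2 and Ctrl3. Markers of non-immune cells were high in the same 2 libraries, with endothelial sums of 813 FPKM in Ctrl5 and 519 in Ctrl1 against 285 or less elsewhere. The stellate cell and fibroblast sums were 196 and 133 FPKM against 69.9 or less elsewhere, and the part of any of these cells in the Icosl and Cd86 values was not tested. Cd86 was highest in Ctrl5 and Ctrl1 and lowest in Ctrl3, as the macrophage and dendritic cell sum was. In the chow-fed mice the macrophage and dendritic cell sum was 188 to 340 FPKM in Flox and 184 to 233 in cKO. The B-lymphocyte markers summed to 1.06 to 5.43 FPKM in Ctrl and 7.58 to 9.64 in OE, of which Cd79a alone held 6.67 to 9.13 in OE. The sums of Ctrl and OE did not overlap, beside 5.61% of single genes wholly higher in OE. In the chow-fed mice they summed to 3.01 to 5.79 FPKM in Flox and 0.965 to 2.25 in cKO. These sums did not overlap, beside 15.4% of single genes wholly lower in cKO. Cd79a, a signalling subunit of the B-cell receptor, was lower in cKO by 1.20 on the log2 scale (limma, adjusted p = 0.0141), and by 0.88 after scaling, where it did not pass (limma, adjusted p = 0.0633). With the acinar share as covariate its log2 fold change was -0.87, where no gene passed. Between OE and Ctrl it was 1.54 and did not pass. With the covariate it was 1.49 and passed, beside 13.4% of all genes called higher. Pax5, the transcription factor that defines the B lineage, was at 0.0229 FPKM or less in all 16 libraries. Whether the immune cells in Ctrl5 came from within the islets was not tested.

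**Figure D4:**
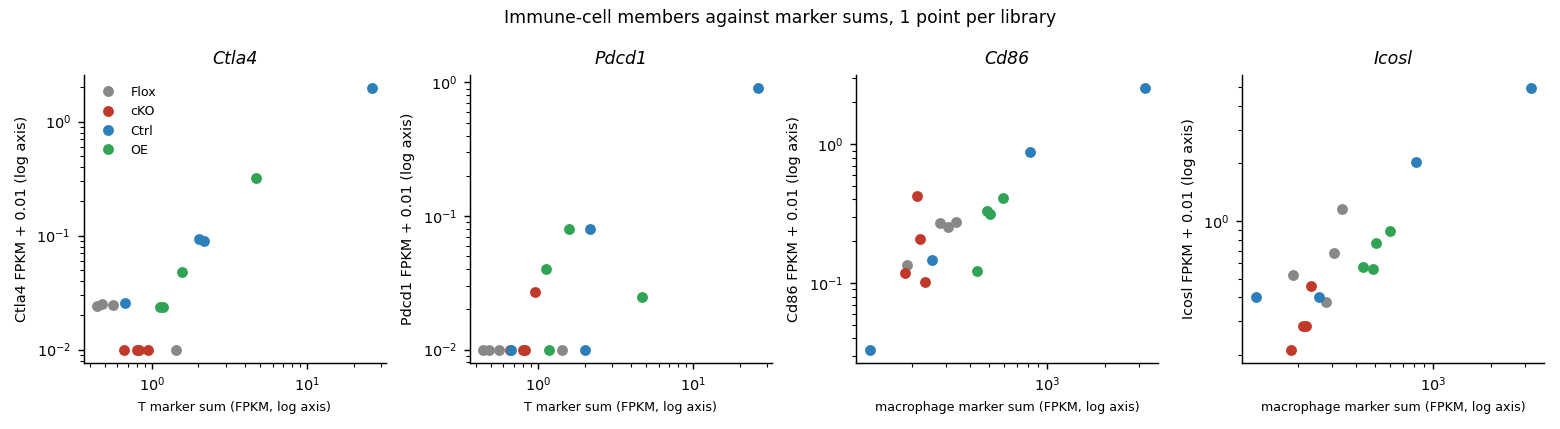
Ctla4 and Pdcd1 against the summed FPKM of 11 T-lymphocyte markers, and Cd86 and Icosl against that of 20 macrophage and dendritic cell markers (log axes, 0.01 added to each member's FPKM on the y axis), 1 point per library coloured by group. Ctrl5 is the top right point of each panel, at sums of 26.3 and 3193 FPKM, and the points of one library share its depth and cell make-up.

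Cd274 stood high in the same 2 libraries as Ctla4, with 8.04 FPKM in Ctrl5 and 6.06 in OE4. The 20 genes listed for interferon gamma signalling and response summed to 344 FPKM in Ctrl5 and 181 in OE4. In the other 14 libraries they summed to between 30.6 and 129. The chemokine Cxcl10, which interferon gamma induces, was at 10.4 FPKM in Ctrl5 and 12.2 in OE4, and at 4.41 or less elsewhere. Cxcl9 was at 11.9 and 2.13 FPKM in these libraries and at 0.495 or less elsewhere. After scaling and removal of each group's mean, the genes with the highest correlation to Cd274 over the 16 libraries, among 10387 genes whose mean reached 1 FPKM in both tables, included Fcer1g (r = 0.91), a signalling subunit of Fc receptors, and the interferon-pathway transcription factor Irf1 (r = 0.90). Without Ctrl5 these were 0.83 and 0.79, and they then ranked 33 and 89 of 10387, so that the order of the most alike genes rested on that library. For Cd276 the most alike were Spata24 (r = 0.86), Arnt (r = 0.84) and Dusp5 (r = 0.84), which ranked 2, 4 and 1 without Ctrl5. The 16 points of each correlation share libraries, depth and cell make-up.

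Of the 20 genes listed for interferon gamma signalling and response, 16 were tested in cKO versus Flox. Of these, 4 were lower in cKO and none higher, beside 12.8% of all genes called lower. The median of the 16 log2 fold changes was -0.46 beside -0.34 over all genes. The 4 genes were Gbp2 (-0.84, limma, adjusted p = 0.0242), Jak1 (-0.65, 0.0326), Ifngr1 (-0.60, 0.0439) and Gbp3 (-0.57, 0.0483). Ifngr1 and Jak1 encode a receptor chain and a kinase of the pathway, and were not read as induced genes. None of the 15 tested passed after scaling, where 147 of 11782 genes were called lower and 133 higher. With the acinar share as covariate none of the 16 passed, in a fit that called 0 of 11804 genes. The median there was -0.0078 beside -0.033. None of 19 tested passed between OE and Ctrl, where the median was 0.31 beside 0.44 over all genes, and with the covariate 1 of 19, Jak1, was higher in OE beside 13.4% of all genes.

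Of 18 partner receptors and co-factors of the family, 14 were listed in the chow table and 15 in the HFD table. In each comparison 7 were tested and none passed, with medians of -0.22 beside -0.34 in cKO versus Flox and of 0.81 beside 0.44 in OE versus Ctrl. Cmtm6, which keeps PD-L1 at the cell surface, was at 11.9 to 29.2 FPKM in Flox and 17.7 to 20.1 in cKO. Cd28, Icos and Btla, receptors of T cells and B cells, were at 0.11 FPKM or less in every library but Ctrl5, where they were at 0.476, 0.427 and 0.280 FPKM. Of 12 other checkpoint ligands and receptors tested in cKO versus Flox, 4 were lower and none higher, or 4 of the 19 genes of both lists, beside 12.8% of all genes called lower. Their median was -0.59 beside -0.34.

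Nectin3, a ligand for adhesion and checkpoint receptors, held 6.37, 4.79, 10.99 and 11.998 FPKM in Flox16, Flox17, Flox20 and Flox21 and 4.36, 3.85, 3.81 and 3.59 in cKO8, cKO9, cKO12 and cKO38 (log2 fold change -0.95, SE 0.24, limma, adjusted p = 0.0242). Tnfrsf9, the costimulatory receptor 4-1BB, held 1.85 to 2.97 FPKM in Flox and 1.40 to 1.55 in cKO (-0.64, limma, adjusted p = 0.0357). Both were without overlap, as held for 15.4% of genes in that direction. Cd47, the don't-eat-me ligand, held 5.47 to 10.8 and 4.12 to 5.63 FPKM (-0.67, limma, adjusted p = 0.0408), and its receptor Sirpa 13.9 to 25.4 and 11.6 to 17.2 FPKM (-0.60, limma, adjusted p = 0.0498). None of the 19 passed after scaling, where 147 of 11782 genes were called lower and 133 higher. With the acinar share as covariate none passed either, in a fit that called 0 of 11804 genes. Of 24 genes of the 2 lists tested in OE versus Ctrl none passed, and with the covariate 3 of 24, Cmtm4, Cmtm6 and Ptpn11, were higher in OE, beside 13.4% of all genes.

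Vtcn1 aside, Cd274 and Cd276 made up most of the family's summed FPKM in each library. Their share was 77.2% to 82.9% in Flox, 83.5% to 90.0% in cKO and 80.9% to 84.3% in OE. It was lowest in Ctrl5, at 52.2%, where the sum of the 9 members reached 27.3 FPKM, against 2.14 FPKM in Ctrl3. Ctrl5 was the only library with more Cd274 than Cd276, at 0.772 of Cd276 over Cd274, and OE4 followed at 1.03.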

How the data were processed

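The authors made the libraries from total RNA of handpicked islets, sequenced them on a NovaSeq instrument and deposited gene values as FPKM (fragments normalised to gene length and mapped reads) in a table for each diet. The submitters' processing notes name mm10, and the aligner and counting tool are not given in the sources used here. FPKM are relative, so that a larger share of acinar transcripts leaves a smaller share for all other genes together. Its part in the value of any single gene was not tested.

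Genes averaging 0.5 FPKM or more in a comparison were tested on log2(FPKM + 0.5) with limma 3.58.1 in R 4.3.3 (empirical Bayes, trend and robust fitting, two-sided, Benjamini-Hochberg over all genes tested, threshold 0.05). The fit was tested on simulated data with spread drawn independently for each gene. The simulation held no difference shared across genes, such as the acinar share, so it does not cover p-values where genes move together. Members and gene lists were chosen with earlier results of these data known. Named genes are the members, list genes past the test, defining markers and the 3 genes most alike to Cd274 and Cd276. Some genes that this rule selects are not reported here, but count in the list sums. The most alike genes are those of highest Pearson correlation of log2(FPKM + 0.5) after scaling and removal of group means. Cxcl9, Cxcl10, Cmtm6, Cd28, Icos, Btla and Pax5 were named after their values were seen. The labels name no pairing by replicate number, and libraries of the same number had correlations of -0.21 to 0.12 after removal of group means. A batch shared by replicate number was not tested. Depth intervals were not computed, since read totals are unknown, and floors from 3 fragments cover counting error only. Python 3.11.15 was used for the other steps.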

Additional observations from a re-analysis of the deposited data

Results flagged for a closer look

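In each group of 4 libraries, a member's value was singled out by its gap to the nearest library. The gap had to exceed Dixon's critical share of the group's range, which chance does in about 1 in 20 groups of normally distributed values. That rate does not hold for values of few fragments, where 1 fragment beside none passes by itself. The number flagged was therefore not read against 1 in 20. A value was singled out in 9 of 38 sets of a member and a group. In Ctrl5, Ctla4 was at 1.97 FPKM (next 0.0837), Pdcd1 at 0.905 FPKM (next 0.0701) and Pdcd1lg2 at 0.0820 FPKM (the others at 0). Ctrl5 also had the highest T-lymphocyte sum, 26.3 FPKM, and the highest macrophage and dendritic cell sum, 3193 FPKM. In OE4, Ctla4 was at 0.312 FPKM (next 0.0382), beside a T-lymphocyte sum of 4.67 FPKM. In Flox17, Cd80 was at 0.108 FPKM (next 0.0388) and Cd86 at 0.125 FPKM (next 0.244), in the Flox library with the highest acinar share, 35.7%. The remaining 3 rest on single fragments. Pdcd1 was at 0.0171 FPKM in cKO8 and 0 in the other cKO libraries, Ctla4 at 0 FPKM in Flox16 beside 1 fragment in each other Flox library, and Pdcd1lg2 at 0 FPKM in cKO9 beside 1 fragment in each other cKO library.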

How the results depend on the processing

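Vtcn1 was higher in OE under all 19 alternatives, by 5.80 to 7.67 on the log2 scale (limma, adjusted p up to 0.00942). No member passed between cKO and Flox, but 2 did with 3 libraries per group, and leaving out 1 library gave 0 to 2 (1 without Flox16, 2 without Flox17). For OE versus Ctrl, 1 member passed in every alternative (1 to 1 with 1 library left out) except with the acinar share as covariate, which gave 3. The 4 other checkpoint and partner genes lower in cKO became 12 with 3 libraries per group, 2 without trend and robust fitting, and 0 with every gene above 0, with scaling, with scaling of every gene above 0, and with the covariate. All genes called in these fits numbered 7800, 1144, 0, 280, 17 and 0, against 1631 in the main fit. Leaving out 1 library gave 0 to 9, with 0 without cKO9, cKO12, cKO38, Flox20 or Flox21, 8 without Flox16 (7 lower and 1 higher) and 9 without Flox17. In that order, all genes called numbered 19, 365, 89, 137, 142, 2857 and 7092, so the counts were not read as particular to these lists. In OE versus Ctrl the count was 0 to 0 with 1 library left out and 3 with the covariate. The direction of Cd274 in cKO versus Flox turned with scaling (0.0900, also with every gene) and the covariate (0.19), and that of Cd276 with scaling (0.26, also with every gene) and the covariate (0.28). With 1 library left out Cd274 ran from -0.46 to -0.11 and Cd276 from -0.18 to 0.0185. Vsir in OE versus Ctrl turned with 3 libraries per group (0.0770) and a pseudocount of 0.1 (0.0227), and ran from -0.31 to 0.28 with 1 library left out. The cause of these changes was not tested. The labels name no pairing by replicate number. With that number as a block, 0 and 1 members passed, with Cd274 at -0.24 and 0.72, and 8 and 0 other checkpoint and partner genes. All genes called rose from 1631 to 2744 in cKO versus Flox under the block. Scaling with every gene above 0 and scaling without Ctrl5 were chosen after seeing the data. Vtcn1, Cd80, Pdcd1lg2, Ctla4 and Pdcd1 are limited by fragment counts, and the Ctrl spread limits the other members.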
